A study of Mus musculus with 21 samples.

Results

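The genes described here are 10 enzymes and enzyme subunits of ceramide and sphingolipid synthesis, followed across 9 groups of mouse MIN6m9 cells. They are Sptlc1, Sptlc2, Kdsr, Cers2, Cers4, Cers5, Cers6, Degs1, Ugcg and Sgms1. They were picked by symbol, through the RefSeq accession of each probe, and where a gene had more than 1 probe the brightest over all 21 arrays stood for it. All 10 were found among the 20145 named genes and 37208 entries of the array, and each was well above background on all 21 arrays.

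Sphingolipids are built in the endoplasmic reticulum from serine and palmitoyl-CoA. Serine palmitoyltransferase, of which Sptlc1 and Sptlc2 are subunits, joins these, Kdsr reduces the product to dihydrosphingosine, ceramide synthases (the Cers genes) add a fatty acyl chain, and Degs1 inserts the double bond that makes ceramide. Ceramide then receives glucose from Ugcg or a phosphocholine head group from Sgms1. Palmitate supplies a substrate of the pathway, and ceramide is known in beta cells as a lipid linked to impaired insulin gene expression and cell death.

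MIN6m9 is a subclone of an insulin-secreting mouse insulinoma line, and RNA was measured on one-colour Agilent arrays. The first of 2 experiments concerned fatty acids: wild-type cells were left untreated or received 400 uM oleate or 400 uM palmitate for 48 h (3 arrays each). The PERK experiment used cells of the genotype Fv2E-PERK, whose kinase the dimerizer AP20187 switches on, after 6, 12, 24 or 48 h with 1 nM of that compound or after mock treatment with ethanol as vehicle, beside wild-type mock cells (2 arrays each). The series asks which genes saturated fatty acids induce and which respond to the ISR, the integrated stress response, a programme started by PERK. The harvest times of untreated and mock cells and the promoter and clonality of the transgene are not given in the sources here. Wild-type cells that received AP20187 were not analysed here. No label states that replicates were separate cultures, and p-values therefore measure the spread between these samples alone, which could be technical.

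On each array 46.8 to 56.9% of the probes were well above background, and precision is limited by how many arrays there are. Of 14 beta-cell markers, 13 or 14 were well above background on every array of each group; Slc2a2 was so on no array of mock, 6 h and 24 h Fv2E-PERK cells. Exocrine markers such as Prss1 and Ptf1a were well above background on no array. The summed linear signal of 9 heart muscle genes, in units of the array's 75th percentile, was 9.26 to 12.0 in untreated cells, 10.6 to 12.5 with oleate and 1.33 to 1.91 with palmitate. Tnnt2, Tnni3, Mybpc3 and Myl7 were well above background on no palmitate array, and Myl7 on no untreated array either. The summed signal of 15 skeletal muscle genes was 26.9 and 27.4 on palmitate replicates 1 and 2, against 1.87 on palmitate replicate 3 and 2.44 to 2.89 on untreated and oleate arrays. Untreated replicate 2 differed from the other untreated arrays by an SD of 0.688 and 0.665 log2 units over entries, where the other replicate pairs differed by 0.290 to 0.390.

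Each signal is given as log2 of its ratio to the 75th percentile of its array, so a value of 1 is a doubling of that percentile's signal, and every change below is relative to it. A gene rose or fell where limma's adjusted p (Benjamini-Hochberg over all entries tested) was under 0.05; errors are standard errors of the fit. The probes of different genes differ in sensitivity, so levels are compared only within a gene, and within an experiment. Scaling on 7 spike-in probes instead moved the median change of all entries against mock by 0.66 log2 units at 6 h, 0.73 at 12 h, 0.93 at 24 h and 0.59 at 48 h, and by 0.71 for 48 h against wild-type mock. The share of calls that were higher then went from 38.4 to 89.4% at 6 h, from 40.1 to 88% at 12 h, from 40.1 to 93.5% at 24 h, from 44 to 88.4% at 48 h, and from 43.1 to 89.4% for 48 h against wild-type mock; quantile normalization gave 49% at 6 h. Correcting the background with normexp gave 32.6% for 48 h against either mock. A member lower here by less than those shifts is mostly higher on the spike-in scale, and where a call turns the value is given beside it. Less RNA of a gene per cell and fewer cells expressing it cannot be told apart in these bulk samples.

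Activation of Fv2E-PERK was accompanied by opposite movements along the pathway. Kdsr, Degs1 and Cers5 were lower at 6 and 12 h, Kdsr and Degs1 had their lowest group means at 6 h, and Sgms1, the sphingomyelin synthase, was higher at 12, 24 and 48 h. Cers4 was higher at 6 h and lower at 48 h, and Ugcg was lower at 48 h. Spike-in scaling took the 6 and 12 h values of Degs1 and the 48 h value of Ugcg out of the calls, with the same sign. On the spike-in scale the lower values of Cers5 at all 4 times, of Kdsr at 24 and 48 h and of Cers4 at 48 h turned to small positive ones that did not pass the test. Mock Fv2E-PERK cells themselves had lower Sgms1 (-0.41) and higher Ugcg (0.60) than wild-type mock cells. Against wild-type mock neither gene passed the test at 48 h (0.12 and -0.12). The 48 h and wild-type mock arrays lay on another slide than the mock Fv2E-PERK arrays.

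At 6 h 1 member was higher and 3 were lower than in mock Fv2E-PERK cells, of 10, where 24.9% of the 23388 entries tested were higher and 40% lower (64.9% in either direction). At 12 h 2 were higher and 4 lower, against 27.2 and 40.5% of entries (67.7% in either direction). At 24 h 3 were higher and 2 lower, against 27 and 40.4% (67.4% in either direction), and at 48 h 1 was higher and 6 lower, against 27.2 and 34.6% (61.8% in either direction). In either direction 4, 6, 5 and 7 of the 10 were called, shares on both sides of the background and near it at most times, so the counts are not a result about the members. Their median change was -0.04, -0.09, 0.06 and -0.39 at 6, 12, 24 and 48 h, where the median of all entries was -0.23, -0.19, -0.20 and -0.07. With spike-in scaling 5 members were higher and 1, Kdsr, was lower both at 6 h and at 12 h, 8 were higher and 0 lower at 24 h, and 3 were higher and 0 lower at 48 h. These 4 comparisons share the mock arrays.

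**Figure D1:**
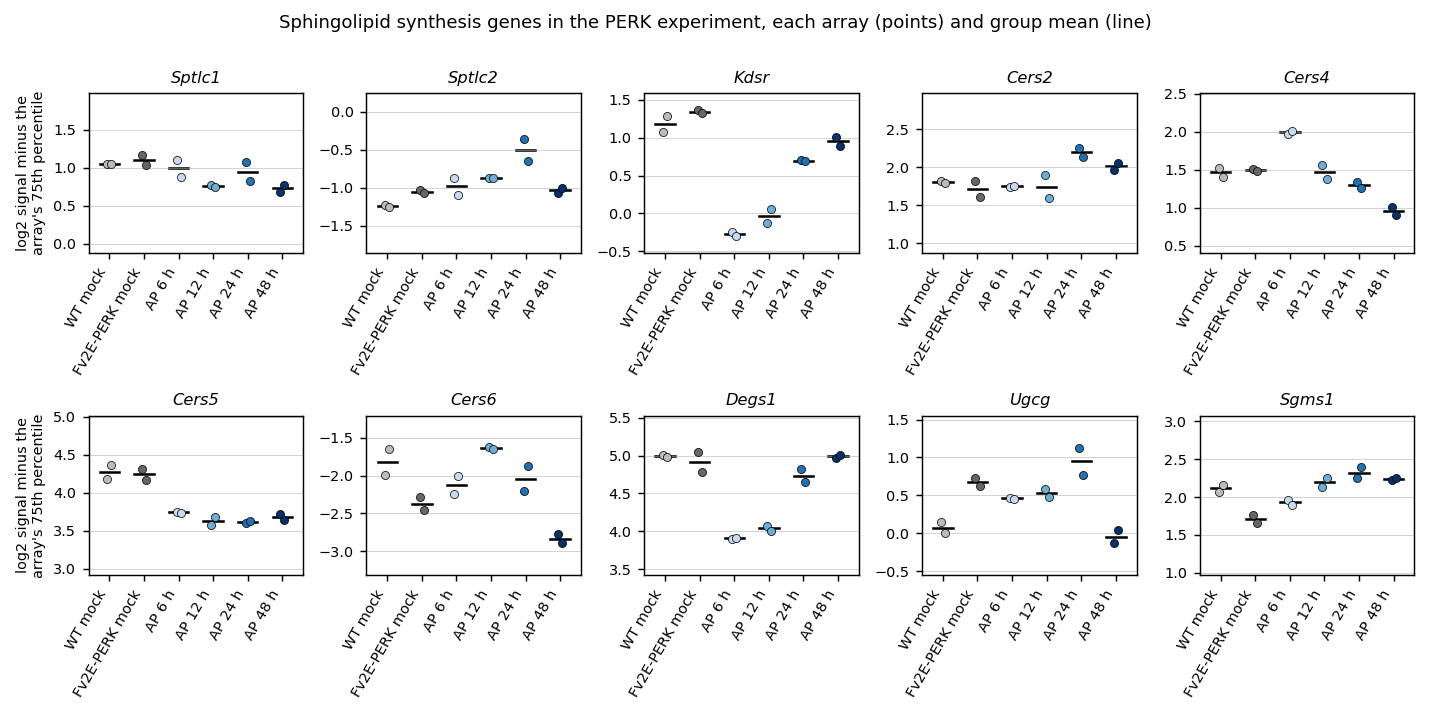
Log2 signal minus the array's 75th percentile (vertical axis, the same span of units in every panel) of the 10 genes in the PERK experiment, by group; points are the 2 arrays of a group and lines their mean. Kdsr and Degs1 are lowest at 6 h and higher again at 24 and 48 h, while Cers5 sits between 3.57 and 3.75 on every AP20187 array against 4.17 and 4.32 on the mock arrays, an order that turns with spike-in scaling.

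Sptlc1, a subunit of the enzyme of the first step, read 1.17 and 1.04 on the 2 mock Fv2E-PERK arrays, 1.103 and 0.88 after 6 h, 0.78 and 0.74 after 12 h, then 1.08 and 0.83 at 24 h and 0.68 and 0.77 at 48 h; wild-type mock cells had 1.04 and 1.05. The 12 h and 48 h arrays lay below both mock arrays, while those at 6 and 24 h overlapped them (-0.12 and -0.16, not past the test; with spike-in scaling the 24 h value was 0.77 and passed). Sptlc1 fell by 0.35 ± 0.11 at 12 h (adjusted p = 0.0203) and by 0.38 ± 0.11 at 48 h (adjusted p = 0.0155), and had positive values of 0.37 and 0.20 with spike-in scaling. The 12 h call was lost without mock replicate 1 (-0.28), 12 h replicate 1 (-0.37) or 12 h replicate 2 (-0.33), and the 48 h call without mock replicate 1 (-0.32) or 48 h replicate 1 (-0.34).

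Sptlc2, the partner subunit, read -1.03 and -1.07 in mock cells, -0.87 and -1.09 after 6 h, -0.87 and -0.86 after 12 h, then -0.36 and -0.65 at 24 h and -1.06 and -1.002 at 48 h. Its 24 h arrays were above those of every other group, and its 48 h arrays lay within the mock values or next to them. It rose by 0.55 ± 0.11 at 24 h (adjusted p = 0.00246). That rise rests on the brighter of its 2 probes: the dimmer averaged -3.38 in mock cells and -3.52 at 24 h, and with both probes averaged the change was 0.21 and did not pass the test. With spike-in scaling it was also higher at 6 h (0.73) and 12 h (0.91).

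Kdsr, the reductase of the second step, had the widest range of group means of the 10 genes. It read 1.36 and 1.32 on the mock arrays, -0.24 and -0.30 after 6 h, -0.12 and 0.05 after 12 h, then 0.71 and 0.69 at 24 h and 1.01 and 0.89 at 48 h, with 1.07 and 1.28 in wild-type mock cells. No array of any AP20187 time reached the mock values, and the 6, 12, 24 and 48 h arrays followed each other upward without overlap. Kdsr fell by 1.61 ± 0.10 at 6 h, a 3.06-fold lower signal (adjusted p = 5.36e-06), and by 1.38 ± 0.10 at 12 h (adjusted p = 7.8e-06), and remained lower at both times with spike-in scaling (-0.95 and -0.65). It was lower by a smaller amount later, with -0.64 ± 0.10 at 24 h (adjusted p = 0.000499) and -0.39 ± 0.10 at 48 h (adjusted p = 0.00789), values that became 0.29 and 0.19 with spike-in scaling. The 48 h call was lost without 48 h replicate 2 (-0.33).

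Degs1, the desaturase that turns dihydroceramide into ceramide, followed a course much like that of Kdsr. Its arrays read 5.05 and 4.78 in mock cells, 3.90 and 3.91 after 6 h, 4.07 and 4.01 after 12 h, then 4.82 and 4.65 at 24 h and 4.97 and 5.01 at 48 h, and wild-type mock cells had 5.01 and 4.99. The 6 and 12 h arrays lay below all others, and those at 24 and 48 h overlapped the mock arrays. Degs1 fell by 1.01 ± 0.10 at 6 h (adjusted p = 5.81e-05) and by 0.88 ± 0.10 at 12 h (adjusted p = 0.000102). On the spike-in scale these values were -0.34 and -0.15 and did not pass the test. At 24 and 48 h the differences from mock were -0.18 ± 0.10 (adjusted p = 0.14) and 0.07 ± 0.10 (adjusted p = 0.546); spike-in scaling gave 0.75 and 0.66, and quantile normalization 0.36 at 48 h, all past the test, and without mock replicate 2 the 24 h value was -0.31, past the test.

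Because Kdsr and Degs1 moved together, their promoter windows are shown, from 250 bases before to 50 after the annotated start, as RefSeq gives them on mouse GRCm38.p6. Both are on the minus strand, Kdsr at chr1:106759693-106759992 and Degs1 at chr1:182282146-182282445. Sequences are 5′ to 3′ in the direction of the gene, and capitals mark GC boxes (GGGCGG or its reverse complement) and the E-box CACGTG.
Kdsr: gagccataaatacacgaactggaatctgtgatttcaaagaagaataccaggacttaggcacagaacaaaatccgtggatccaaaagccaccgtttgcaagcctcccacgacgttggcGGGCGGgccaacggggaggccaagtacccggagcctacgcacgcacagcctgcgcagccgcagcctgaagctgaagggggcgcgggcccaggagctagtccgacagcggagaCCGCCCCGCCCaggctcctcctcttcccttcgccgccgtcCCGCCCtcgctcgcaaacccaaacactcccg
Degs1: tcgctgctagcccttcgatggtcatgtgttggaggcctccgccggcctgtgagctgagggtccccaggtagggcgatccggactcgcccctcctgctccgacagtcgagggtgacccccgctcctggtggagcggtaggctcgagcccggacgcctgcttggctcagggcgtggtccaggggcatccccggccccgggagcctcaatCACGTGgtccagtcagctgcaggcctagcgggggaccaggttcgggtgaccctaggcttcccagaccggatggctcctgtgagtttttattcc
The Kdsr window holds 4 GC boxes, 2 of them overlapping by 1 base, and no E-box, and the Degs1 window holds 1 E-box and no GC box.

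All 10 genes have such windows (14 in all), which were searched on both strands together with the 32851 windows of 300 bases in the table. The GC box was present for 8 of the 10 genes and in 35.7% of all windows, and CCAAT for 5 genes and in 37.4% of windows. CCACG was found for 8 genes and in 32.8% of windows, and in Cers6 and Degs1 1 of its matches overlaps the E-box. The E-box itself was found for 3 genes, Cers2, Cers6 and Degs1, and in 7.15% of windows. TATAAA was found for Sgms1 alone and in 13.6% of windows. No match in any window of the 10 genes was found for TGATGNAA, the core of the element that ATF4 complexes bind (3.97% of all windows), TGACGTCA, the cyclic AMP response element (1.79%), the CLEAR element, which contains the E-box (0.326%), the sterol response element (0.234%) or the PPAR response element (0.0396%). A gene with several windows has more chances of a match than a single window.

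The 4 ceramide synthases differed from each other in course. Cers5, which favours palmitoyl chains, read 4.32 and 4.17 in mock cells, 3.75 and 3.73 after 6 h, 3.57 and 3.68 after 12 h, then 3.60 and 3.63 at 24 h and 3.72 and 3.65 at 48 h, with 4.18 and 4.36 in wild-type mock cells. All 8 AP20187 arrays lay below all 4 mock arrays. The changes against mock were -0.50 ± 0.09 at 6 h (adjusted p = 0.00146), -0.62 ± 0.09 at 12 h (adjusted p = 0.000425), -0.63 ± 0.09 at 24 h (adjusted p = 0.000397) and -0.56 ± 0.09 at 48 h (adjusted p = 0.000858). All 4 turned positive with spike-in scaling, at 0.16, 0.11, 0.30 and 0.02, and none of those passed the test. Between 6 and 48 h the difference was -0.06, with a 95% interval from -0.27 to 0.15.

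Cers4, which favours long acyl chains, had 1.51 and 1.49 on the mock arrays, 1.98 and 2.01 after 6 h, 1.56 and 1.38 after 12 h, then 1.34 and 1.26 at 24 h and 1.01 and 0.90 at 48 h. The 6 h arrays were above every other array of the experiment and the 48 h arrays below every other. Cers4 rose by 0.49 ± 0.09 at 6 h (adjusted p = 0.00119) and was lower at 48 h, with -0.54 ± 0.09 (adjusted p = 0.000759), where spike-in scaling gave 0.04. The values at 12 and 24 h, -0.03 ± 0.09 and -0.20 ± 0.09, did not pass the test and were 0.70 and 0.73 with spike-in scaling, both past it.

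Cers6, the other palmitoyl-preferring synthase, had the largest standard error of the 10 genes. It read -2.29 and -2.45 in mock cells, -2.25 and -2.01 after 6 h, -1.63 and -1.65 after 12 h, and -2.20 and -1.88 after 24 h. At 48 h it was down to -2.77 and -2.90, and wild-type mock cells had -1.99 and -1.66. The 12 h arrays were the highest and the 48 h arrays the lowest of the experiment. Cers6 rose by 0.73 ± 0.15 at 12 h (adjusted p = 0.00281) and was lower at 48 h, with -0.46 ± 0.15 (adjusted p = 0.0267), where spike-in scaling gave 0.12. The 48 h call was lost without mock replicate 1 (-0.38), 48 h replicate 1 (-0.53) or 48 h replicate 2 (-0.40), and the 24 h value of 0.33 passed the test without 24 h replicate 1 (0.49). Quantile normalization and spike-in scaling also took Cers6 past the test at 6 h (0.40 and 0.91) and 24 h (0.48 and 1.26).

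Cers2, which makes ceramides with very long chains, read 1.82 and 1.62 in mock cells, 1.74 and 1.75 after 6 h, 1.90 and 1.59 after 12 h, then 2.25 and 2.14 at 24 h and 1.97 and 2.06 at 48 h. Only at 24 and 48 h did its arrays lie above the mock arrays. It rose by 0.48 ± 0.11 at 24 h (adjusted p = 0.00602), and with spike-in scaling it was higher at 6 h (0.69), 12 h (0.75) and 48 h (0.88) too. The 48 h value of 0.30 ± 0.11 (adjusted p = 0.0511) missed the threshold and passed it without mock replicate 1 (0.40) or either 12 h array (0.30).

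Of the enzymes that use ceramide, Sgms1 rose at 12, 24 and 48 h and Ugcg fell at 48 h. Sgms1 read 1.76 and 1.65 in mock cells, 1.97 and 1.89 after 6 h, 2.13 and 2.26 after 12 h, then 2.25 and 2.39 at 24 h and 2.23 and 2.25 at 48 h, above the mock arrays on all 8 AP20187 arrays. It rose by 0.49 ± 0.09 at 12 h (adjusted p = 0.00119), 0.61 ± 0.09 at 24 h (adjusted p = 0.000337) and 0.53 ± 0.09 at 48 h (adjusted p = 0.000847), and was also higher at those times with spike-in scaling. The 6 h value of 0.22 ± 0.09 (adjusted p = 0.0502) missed the threshold and passed it without either 24 h array, with a stricter filter on dim probes or with quantile normalization (0.22 each), with normexp (0.31) and with spike-in scaling (0.89). Wild-type mock cells, however, had 2.07 and 2.16, close to the AP20187 arrays.

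Ugcg read 0.73 and 0.62 in mock cells, 0.47 and 0.45 after 6 h, 0.58 and 0.48 after 12 h, then 1.13 and 0.77 at 24 h and -0.13 and 0.04 at 48 h. The 24 h arrays were above and those at all other times below the mock arrays. Ugcg fell by 0.72 ± 0.12 at 48 h (adjusted p = 0.00125), a value of -0.13 that did not pass the test on the spike-in scale. Its 24 h value of 0.28 ± 0.12 (adjusted p = 0.0785) passed the test without 24 h replicate 2 (0.46) and with spike-in scaling (1.21). Wild-type mock cells had 0.15 and 0.00, next to the 48 h arrays.

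**Figure D2:**
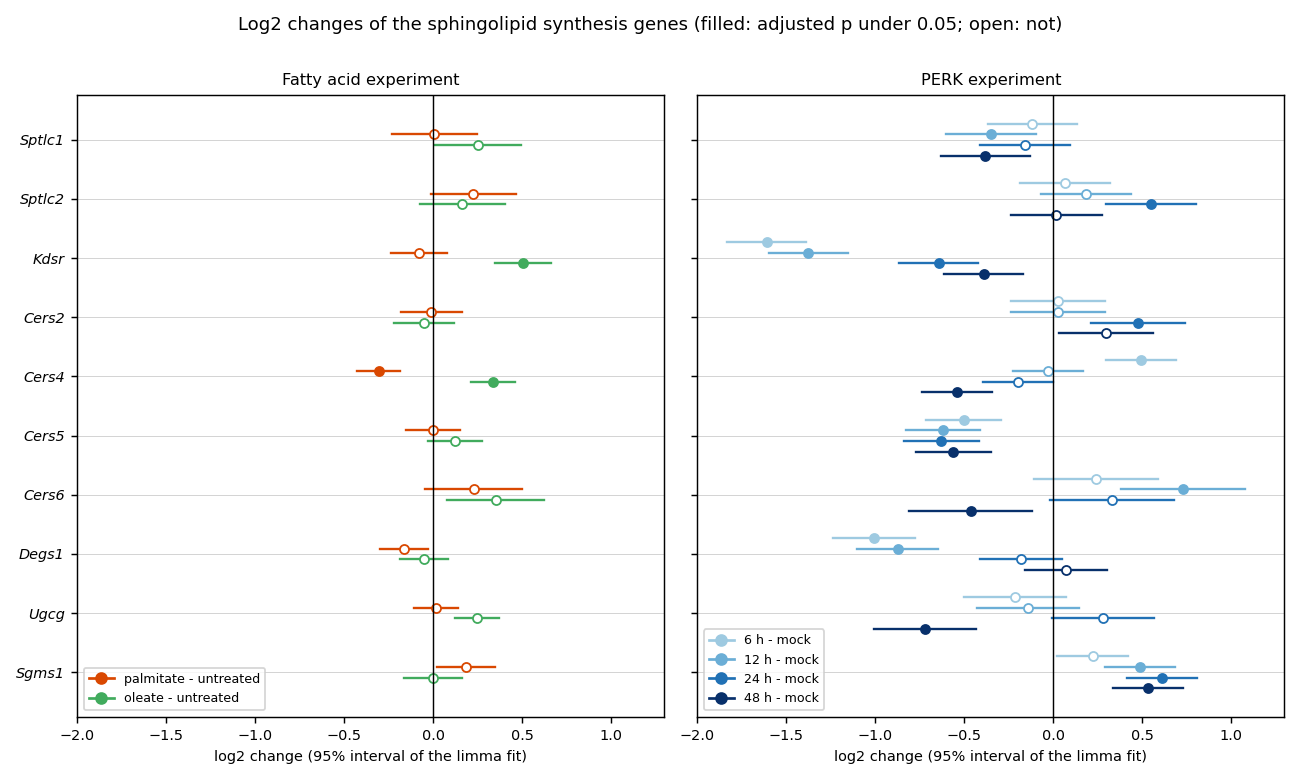
Log2 changes of the 10 genes with 95% intervals from the limma fit (horizontal axis, relative to the array's 75th percentile); the left panel has palmitate and oleate against untreated, the right panel the 4 AP20187 times against mock, and filled points have an adjusted p under 0.05. Kdsr runs from -1.61 at 6 h to -0.39 at 48 h, while the 4 values of Cers5 lie between -0.63 and -0.50; with spike-in scaling Kdsr at 24 and 48 h and Cers5 at all 4 times turn positive.

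The array layout bears on the 48 h values. Both 48 h arrays and both wild-type mock arrays were on 1 slide, and the mock, 6, 12 and 24 h arrays of Fv2E-PERK cells on another, so for 48 h against mock, 48 h against 6 h and Fv2E-PERK mock against wild-type mock, slide and group cannot be told apart. Fits on the arrays of 1 slide alone left the call of every member the same at 6, 12 and 24 h against mock. Marker genes moved as well: of 14 beta-cell markers 12, 11, 11 and 9 were lower at 6, 12, 24 and 48 h, with median changes of -0.65, -0.70, -0.88 and -0.93. Of all entries 40, 40.5, 40.4 and 34.6% were lower at these times. Spike-in scaling moves those medians upward by 0.66, 0.73, 0.93 and 0.59. This is more than the median fall of the markers at 6, 12 and 24 h and less than it at 48 h. The median fall thus depends on the scale at 6, 12 and 24 h, and a smaller one remains at 48 h. The part of these markers in the values of the 10 genes was not tested.

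The course between the early and the late times was tested directly. At 48 h against 6 h 3 members were higher and 3 lower, against 33.2 and 27.6% of all entries (60.8% in either direction). Kdsr was higher by 1.22 ± 0.10 (adjusted p = 2.61e-05) and Degs1 by 1.08 ± 0.10 (adjusted p = 5.32e-05). Cers4 was lower, with -1.03 ± 0.09 (adjusted p = 3.15e-05), as were Cers6, with -0.71 ± 0.15 (adjusted p = 0.00407), and Ugcg, with -0.50 ± 0.12 (adjusted p = 0.0081). These 5 kept their direction with spike-in scaling, though Ugcg (-0.58) no longer passed. The call of Ugcg was lost without 48 h replicate 1 (-0.42), and that of Sgms1, 0.31 ± 0.09 (adjusted p = 0.0137), without 6 h replicate 2 (0.27), 48 h replicate 1 (0.33) or 48 h replicate 2 (0.30), or with spike-in scaling (0.23). Cers2 at 0.27 and Sptlc1 at -0.26 missed the threshold; without either 12 h array Cers2 passed it at 0.27, and Sptlc1 did so without either 24 h array (-0.26) or 6 h replicate 2 (-0.38).

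The comparison of 24 h with 6 h, added because both groups lie on the same slide, gave 6 members higher and 1 lower, against 20.8 and 18.5% of entries (39.3% in either direction). The median change of the members was 0.42, where that of all entries was 0.01. Kdsr was higher by 0.97 ± 0.10 (adjusted p = 0.000243) and Degs1 by 0.83 ± 0.10 (adjusted p = 0.000546), and both passed with spike-in scaling, which moved the median of all entries by 0.27 and the share of calls that were higher from 52.9 to 86.4%. Cers4 was lower, with -0.69 ± 0.09 (adjusted p = 0.000598; -0.43 and not past the test with spike-in scaling). Ugcg at 0.49, Sptlc2 at 0.48, Cers2 at 0.45 and Sgms1 at 0.39 were higher as well. Only 3 members were called without 6 h replicate 2: Sptlc2 (0.37), Cers2 (0.46), Ugcg (0.48) and Sgms1 (0.35) then missed the threshold. Ugcg and Cers2 also lost their calls without 6 h replicate 1 (0.50 and 0.44) or 24 h replicate 1 (0.31 and 0.39).

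In cells that had received no AP20187, 3 of the 10 genes differed between genotypes. Against wild-type mock cells 1 member was higher and 2 were lower in mock Fv2E-PERK cells, where 9.23% of entries were higher and 10.8% lower (20% in either direction). Ugcg was higher by 0.60 ± 0.12 (adjusted p = 0.0132), while Cers6 was lower, with -0.55 ± 0.15 (adjusted p = 0.0386), as was Sgms1, with -0.41 ± 0.09 (adjusted p = 0.014). The arrays of the 2 genotypes did not overlap for these 3 members, nor for Sptlc2 and Kdsr, which were not called. The share of all entries without overlap was not computed, so lack of overlap is not a result about the members. No member passed the test without wild-type mock replicate 2 (Ugcg 0.53, Cers6 -0.38, Sgms1 -0.36) or with spike-in scaling, which moved the median of all entries by 0.12 and the share of calls that were higher from 46.1 to 75.8%. Without mock Fv2E-PERK replicate 1 Ugcg (0.55) and Cers6 (-0.63) lost their calls, without replicate 2 Cers6 (-0.47) and Sgms1 (-0.35) did, and Cers6 (-0.55) also did without either 12 h or either 48 h array and without a filter on dim probes, and with normexp (-0.26). The remaining 7 members had values between -0.09 and 0.19, with medians of 0.00 over the 10 and -0.05 over all entries.

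Set against wild-type mock cells on the same slide, a comparison also added for the layout, the 48 h cells had 0 members higher in limma's test and 4 lower (0 and 5 at an unadjusted p under 0.05; 4 higher and 0 lower with spike-in scaling), where 27.5% of entries were higher and 36.3% lower (63.8% in either direction). Cers6 was lower, with -1.01 ± 0.15 (adjusted p = 0.000481), Cers5 with -0.59 ± 0.09 (adjusted p = 0.000589) and Cers4 with -0.51 ± 0.09 (adjusted p = 0.000922); with spike-in scaling they were -0.31, 0.12 and 0.20. Sptlc1 was lower, with -0.32 ± 0.11 (adjusted p = 0.0312; 0.39 with spike-in scaling), a call lost without any 1 of the 4 arrays compared (-0.36 to -0.28). Against this reference neither Ugcg (-0.12 ± 0.12, adjusted p = 0.43) nor Sgms1 (0.12 ± 0.09, adjusted p = 0.237) passed the test. With spike-in scaling Sgms1 (0.83), Sptlc2 (0.92) and Cers2 (0.91) were higher and passed. Kdsr, at -0.22 ± 0.10 (adjusted p = 0.0726), passed without wild-type mock replicate 1 (-0.33), and Degs1, at -0.01, was 0.30 with quantile normalization and 0.70 with spike-in scaling, both past the test.

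In the fatty acid experiment oleate and palmitate were given at the same dose and time. Palmitate replicate 3, the palmitate array without high skeletal muscle signal, lay alone on a slide, and the other fatty acid arrays shared another. Kdsr and Cers4 were higher with oleate than with palmitate or without fatty acid, and Cers4 was lower with palmitate than in untreated cells. Of serine palmitoyltransferase, the enzyme that uses palmitoyl-CoA, Sptlc1 and Sptlc2 did not pass the test with palmitate.

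**Figure D3:**
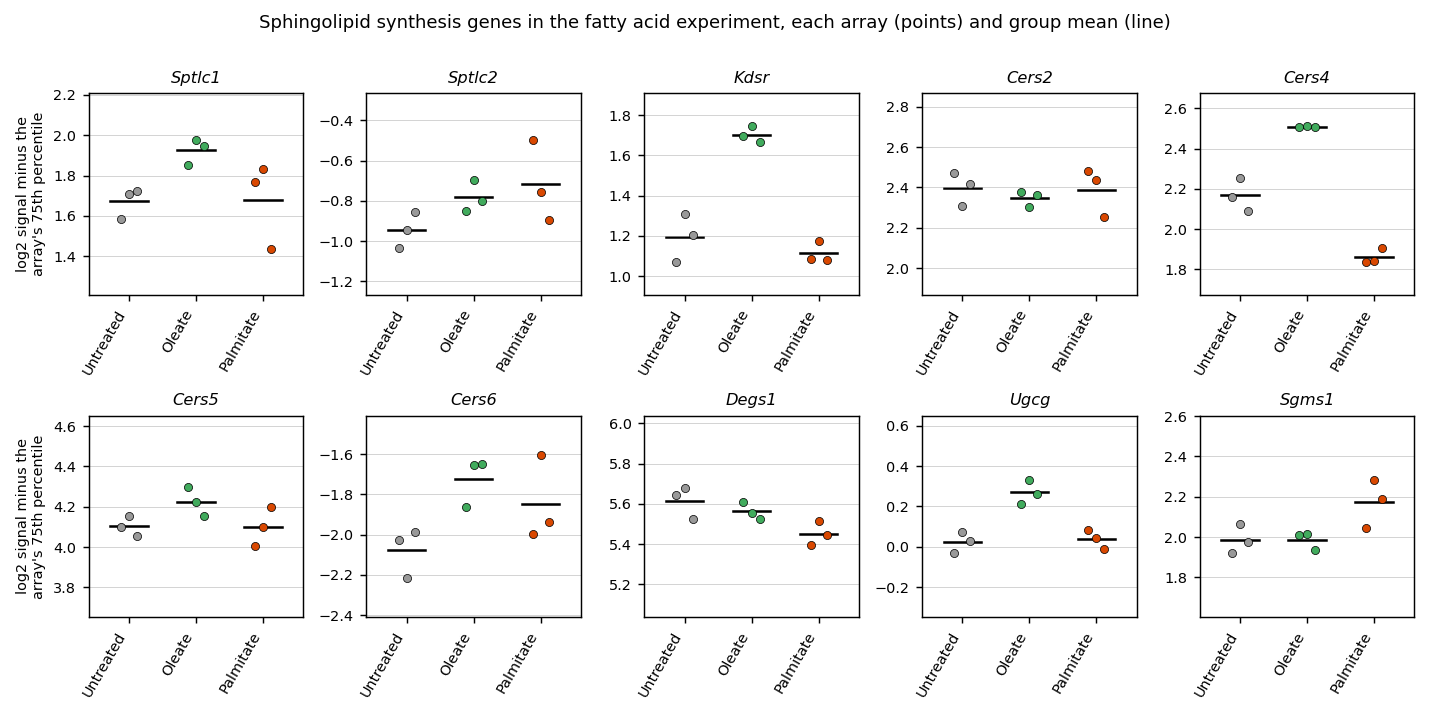
Log2 signal minus the array's 75th percentile (vertical axis, the same span of units in every panel) of the 10 genes in the fatty acid experiment; points are the 3 arrays of a group and lines their mean. The oleate arrays of Kdsr (1.67 to 1.74) and Cers4 (2.51 on each) lie above all untreated and palmitate arrays, and the palmitate arrays of Cers4 (1.84 to 1.91) below all untreated ones.

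With palmitate 0 members were higher in limma's test and 1 was lower than in untreated cells, where 7.42% of the 21281 entries tested were higher and 12.6% lower (20.1% in either direction). With oleate 2 were higher and 0 lower, against 0.334 and 0.503% of entries (0.836% in either direction). Between the fatty acids 0 members were higher and 3 lower with palmitate, against 7.48 and 6.27% (13.7% in either direction). The median change of the 10 genes was 0.00 with palmitate, 0.20 with oleate and -0.12 for palmitate against oleate, where all entries had -0.05, -0.05 and 0.00. At an unadjusted p under 0.05 palmitate gave 1 higher and 2 lower, oleate 5 higher and 0 lower, and palmitate against oleate 1 higher and 4 lower. The share of all entries at an unadjusted p was not computed. Counts at that threshold, here and elsewhere, are therefore not a result about the genes counted. The comparisons share arrays: untreated cells serve both fatty acids. Spike-in scaling moved the median of all entries by 0.18 for palmitate against untreated, where the share of calls that were higher went from 37 to 87.6%, and by 0.19 for palmitate against oleate, where it went from 54.4 to 93%. For oleate that share was 39.9%, with 50.6% after quantile normalization, 75% after spike-in scaling (4 calls in all) and 70.1% in the deposited matrix values, which moved the median for palmitate by -0.23 against untreated and -0.29 against oleate and gave a share of 35.9% in the latter. No member passed the test in any of these 3 comparisons with spike-in scaling or with the matrix values.

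Kdsr read 1.07, 1.31 and 1.21 in untreated cells, 1.70, 1.74 and 1.67 with oleate, and 1.09, 1.18 and 1.08 with palmitate. The oleate arrays stood above all others, and those of palmitate overlapped the untreated ones. Kdsr rose by 0.51 ± 0.07 with oleate (adjusted p = 0.0201) and was lower with palmitate than with oleate, at -0.59 ± 0.07 (adjusted p = 0.00169). The call against untreated was lost without oleate replicate 1 (0.51), 2 (0.49) or 3 (0.52) or untreated replicate 3 (0.51). With palmitate against untreated its value was -0.08 ± 0.07 (adjusted p = 0.458).

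Cers4 read 2.16, 2.25 and 2.09 in untreated cells, 2.51 on each oleate array, and 1.84, 1.84 and 1.91 with palmitate. The 3 groups did not overlap. It rose by 0.34 ± 0.05 with oleate (adjusted p = 0.0375), was lower with palmitate, at -0.31 ± 0.05 (adjusted p = 0.0069), and differed between the fatty acids by -0.64 ± 0.05 (adjusted p = 0.000321). The oleate call was lost without any 1 oleate array (0.34 for each), any 1 palmitate array (0.34 for each), untreated replicate 1 (0.33) or untreated replicate 3 (0.30). Without palmitate replicates 1 and 2, the arrays with high skeletal muscle signal, the palmitate value was -0.26, from palmitate replicate 3 alone. That array was also alone on its slide, so slide and skeletal muscle signal cannot be told apart there. Its heart muscle signal was low, as on the other palmitate arrays.

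Ugcg read -0.03, 0.07 and 0.03 in untreated cells, 0.21, 0.33 and 0.26 with oleate and 0.08, 0.04 and -0.01 with palmitate, with the oleate arrays above the rest. It was lower with palmitate than with oleate, at -0.23 ± 0.05 (adjusted p = 0.0281), and this call was lost without any 1 oleate or any 1 palmitate array (-0.26 to -0.20), with slide as a block (-0.21), with normexp (-0.16) and without a filter on dim probes. Against untreated, oleate gave 0.25 ± 0.05 (adjusted p = 0.0946).

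With all arrays the other 7 genes did not pass the test in the fatty acid experiment, apart from Sgms1 for palmitate against untreated with normexp (0.20). Sptlc1 read 1.58, 1.71 and 1.72 in untreated cells, 1.85, 1.98 and 1.95 with oleate and 1.77, 1.83 and 1.44 with palmitate. Its palmitate value of 0.01 had a 95% interval from -0.23 to 0.25. Against oleate its value was -0.25, and -0.49 with palmitate replicate 3 as the only palmitate array. Sptlc2, with -1.03, -0.94 and -0.86 in untreated cells and -0.50, -0.76 and -0.90 with palmitate, gave 0.23, with an interval from -0.01 to 0.47. Changes within the intervals given were not excluded with 3 arrays per group. Degs1 had 5.64, 5.68 and 5.53 in untreated cells and 5.40, 5.51 and 5.44 with palmitate, arrays that did not overlap, for a change of -0.16 ± 0.06 (adjusted p = 0.0887). Cers6, at 0.23 with palmitate and 0.35 with oleate (adjusted p = 0.21 for the latter), had the largest errors, ± 0.12. Cers2 and Cers5 changed by between -0.05 and 0.12 in both comparisons with untreated cells, and Sgms1 by 0.19 ± 0.07 with palmitate (adjusted p = 0.105) and 0.00 with oleate.

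The ISR itself was tracked through 8 of its target genes, which the known biology of PERK puts downstream of it. All 8 were higher with palmitate, at 6 h and at 24 h, 7 of 8 at 12 h and at 48 h, and 0 passed limma's test with oleate, where 2 had an unadjusted p under 0.05. The transcription factor Atf3, induced by stress, rose by 2.62 ± 0.09 with palmitate (adjusted p = 3.58e-06) and by 5.58 ± 0.08 at 6 h (adjusted p = 2.51e-08). Kdsr, Degs1 and Cers5, which fell at 6 h, had values of -0.08, -0.16 and 0.00 with palmitate. Cers4 was lower with palmitate and at 48 h (0.04 at 48 h with spike-in scaling), and higher at 6 h. Whether the responses of the 2 experiments differ was not tested, since they were fitted apart.

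The rest of the sphingolipid pathway was read through 5 lists. Of other subunits and isoforms of synthesis, 9 were tested: those higher and lower numbered 2 and 5 after 6 h, 1 and 6 after 12 h, 2 and 5 after 24 h, then 3 and 4 at 48 h, with medians of -0.47, -0.43, -0.33 and -0.22. All entries had 24.9% higher and 40% lower at 6 h and 27.2 and 34.6% at 48 h, shares that also serve the lists below. For the fatty acid counts of all lists the shares were 7.42% higher and 12.6% lower with palmitate, and 0.334 and 0.503% with oleate. With spike-in scaling the counts of this list were 2 and 1, 2 and 1, 4 and 0, and 3 and 2. Sptssa, a small subunit that activates serine palmitoyltransferase, went from 3.60 and 3.48 in mock cells to 1.81 and 1.65 at 48 h, a fall of 1.81 ± 0.12 (adjusted p = 1.03e-05) that also passed with spike-in scaling. Rtn4, a reticulon that binds the same enzyme, fell by 1.52 ± 0.09 at 6 h (adjusted p = 4.61e-06), and Ormdl2, of the family that restrains it, by 0.98 ± 0.12 at 12 h (adjusted p = 0.000117; -0.26 and not past the test with spike-in scaling). Sgms2, the second sphingomyelin synthase, rose by 1.15 ± 0.09 at 24 h (adjusted p = 1.21e-05). Cers3 rose by 1.46 ± 0.11 at 48 h (adjusted p = 1.36e-05), but with all its probes averaged the value was 0.23 and missed the threshold. With palmitate 2 of these 9 were higher and 1 lower (Sptssa, at -0.40, not past the test without palmitate replicate 1 or 2 or untreated replicate 2 or 3, at -0.41 to -0.34, or with spike-in scaling, at -0.22), and with oleate 0 passed limma's test in either direction (2 lower at an unadjusted p under 0.05).

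Of the genes for ceramide transport and further head groups, 12 were tested in the PERK experiment, and in limma's test 0 were higher and 7 lower at 6 h, 0 and 8 at 12 h (the same counts at an unadjusted p under 0.05), 2 and 9 at 24 h and 2 and 7 at 48 h. Their medians were -0.48, -0.63, -0.57 and -0.36, or -0.52, -0.84, -0.51 and -0.46 with genes dim in 1 group at their bound and those dim in both removed. With spike-in scaling 0 were lower at 6, 12 and 24 h and 3 at 48 h. B4galt5, a lactosylceramide synthase, went from 2.74 and 2.64 to 1.45 and 1.19 at 24 h, a fall of 1.37 ± 0.11 (adjusted p = 1.55e-05; -0.44 and not past the test with spike-in scaling), and fell with palmitate by 0.57 ± 0.12 (adjusted p = 0.0122; not past the test with spike-in scaling, at -0.39). St3gal5, which makes the ganglioside GM3, fell by 1.21 ± 0.08 at 48 h (adjusted p = 6.79e-06) and Cerk, the ceramide kinase, by 1.33 ± 0.12 (adjusted p = 3.06e-05). Of 11 tested with the fatty acids, 3 were lower with palmitate and 0 with oleate in limma's test (5 and 2 at an unadjusted p under 0.05).

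The list of ceramidases, sphingomyelinases and lysosomal hydrolases and their activators held 19 tested genes, of which in limma's test 4 were higher and 15 lower after 6 h, 3 and 14 after both 12 and 24 h, and 2 and 13 after 48 h. Its medians were -1.13, -1.11, -0.79 and -0.47. On the spike-in scale 6, 8, 2 and 3 of them were lower at the 4 times. Gm2a, the activator of ganglioside breakdown, read 0.25 on both mock arrays and -1.79 and -1.95 at 12 h, a fall of 2.12 ± 0.09 (adjusted p = 7.83e-07). With palmitate 3 were higher and 1 lower. Smpd3, a neutral sphingomyelinase, fell by 0.42 ± 0.05 (adjusted p = 0.00179; not past the test with spike-in scaling, at -0.24, or with the matrix values).

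Among sphingosine-1-phosphate genes Sphk1, a kinase that makes this lipid, moved in opposite directions in the 2 experiments. It read -0.44, -0.52 and -0.51 in untreated cells, 0.47, 0.56 and 0.47 with oleate and 0.29, 0.40 and 0.42 with palmitate, and rose by 0.99 ± 0.05 (adjusted p = 0.000686; 0.98 and not past the test with spike-in scaling) and 0.86 ± 0.05 (adjusted p = 7.76e-05). In the PERK experiment it went from -0.97 and -0.81 in mock cells to -3.92 and -3.82 at 12 h, a fall of 2.98 ± 0.12 (adjusted p = 8.24e-07). S1pr2, a receptor for the lipid, was well above background on no mock array and at least 3.37-, 5.37-, 6.48- and 5.06-fold higher at 6, 12, 24 and 48 h, a bound set against the dimmest signals well above background. Of 13 tested genes of the list 4 were higher and 5 lower at 6 h and 3 and 4 at 48 h, which became 6 and 1, and 5 and 0, with spike-in scaling. Of 11 tested in the fatty acid experiment 4 were higher and 1 lower with palmitate and 2 and 0 with oleate.

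Genes that supply serine and acyl-CoA were higher with palmitate in 9 of 17 cases and lower in 2, with a median of 0.30. Of all entries 7.42% were higher and 12.6% lower with palmitate. With oleate 0 of these genes were higher and 1 lower in limma's test (1 and 4 at an unadjusted p under 0.05). Phgdh, the first enzyme of serine synthesis, rose by 1.20 ± 0.07 with palmitate (adjusted p = 3.94e-05) and by 2.56 ± 0.15 at 48 h (adjusted p = 4.82e-06). At 6, 12, 24 and 48 h 6, 7, 9 and 8 of 18 were higher and 6, 6, 5 and 6 lower, with medians of 0.06 (0.01 without a gene dim in both groups), 0.10, 0.14 and 0.04. With spike-in scaling 1, 1, 0 and 0 were lower.

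**Figure D4:**
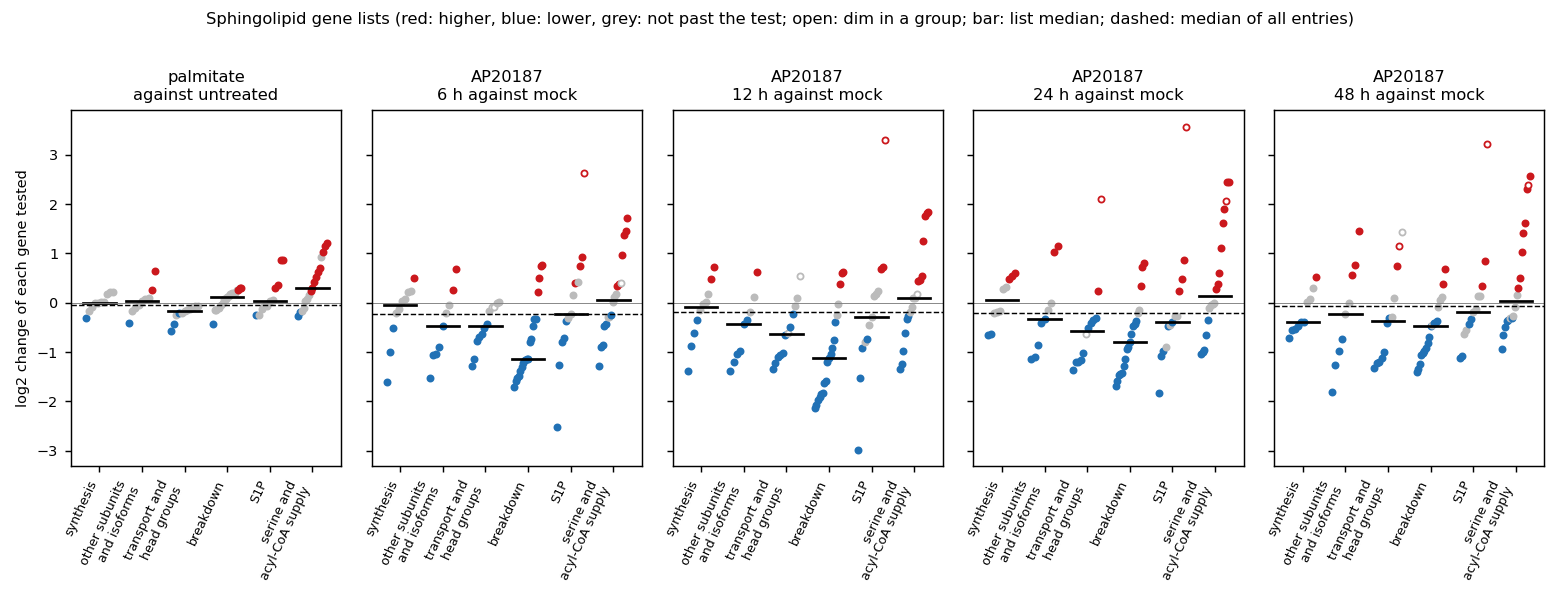
Log2 change of every gene tested (vertical axis, relative to the array's 75th percentile) in the 10 genes and the 5 other lists, for palmitate against untreated and each AP20187 time against mock; red points are higher, blue lower and grey not past the test, open circles are dim in a group, bars are list medians and dashed lines the median of all entries. The breakdown list has medians of -1.13 at 6 h and 0.12 with palmitate; with spike-in scaling fewer blue points remain at every time.

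Likeness of pattern was measured by Pearson's r over the 9 group means, each centred within its experiment, for 13102 entries; these groups share slides and scaling, and r is a description. Kdsr and Degs1 correlated with each other at 0.93. Degs1 was most like Snx30 (0.998), Rbbp6 (0.990) and Ctns (0.988), and Kdsr most like C1qtnf6 (0.971), Klhl38 (0.968) and Gpr179 (0.966). Cers6 was most like Per3 (0.987), Nectin3 (0.963) and Malt1 (0.952), though Per3 was well above background on no mock Fv2E-PERK array. Snx30 had group means of 1.98 in mock cells, 0.73 at 6 h, 0.94 at 12 h, 1.70 at 24 h and 1.99 at 48 h, the dip and return seen for Degs1.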

How the data were processed

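RNA of 21 MIN6m9 samples was hybridised to one-colour Agilent arrays. The authors deposited scanner output of Agilent Feature Extraction 10.7.1.1, per the file headers, whose processed signal is an intensity per spot after the scanner software's background subtraction; the design header names build mm9. The deposited value table holds log2 values, centred per probe, per the values themselves; its scale and baseline are unknown, and it served as an alternative.

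Here 3671 control spots and outlier spots were left out, spots of a probe were averaged, and log2 intensity minus each array's 75th percentile was taken. Of 55681 probes 26582 had a symbol through RefSeq (GRCm38.p6) and 29099 did not; unnamed probes were kept as entries. A gene was tested in an experiment where, in 1 or more groups, every array had its brightest probe well above background. limma 3.58.1 (R 4.3.3) was fitted per experiment, over 9 arrays in 3 groups and 12 arrays in 6, with lmFit, eBayes and Benjamini-Hochberg adjustment. Scripts were tested on simulated data.

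All 10 members were named in every comparison; of other lists, the called genes that changed most, at most 4 per list and comparison, could be named; the Kdsr, Degs1 and Cers6 patterns, widest in range, were matched to 3 entries each. The members and lists were chosen with earlier results of these data known. Replicate numbers were not used as pairs: deviations of same-numbered samples correlated at -0.03 to 0.04 and -0.01 to 0.13, which does not exclude a small shared effect. For 1 wild-type mock array title and source name disagree on the replicate number, and the title was used. Alternatives were background correction (normexp with offset 50, on median signals), quantile and spike-in scaling, filters on dim probes, all probes of a gene, matrix values, blocks, single slides and left-out arrays. Comparisons within a slide were added after the layout was seen.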

Additional observations from a re-analysis of the deposited data

Results flagged for a closer look

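In 16 cases the effects of 2 conditions on a gene differed in limma's direct test of the difference. Between palmitate and oleate these were Kdsr (-0.59), Cers4 (-0.64) and Ugcg (-0.23), all lower with palmitate. Between 48 and 6 h of AP20187 they were Kdsr (1.22), Degs1 (1.08) and Sgms1 (0.31), higher at 48 h, and Cers4 (-1.03), Cers6 (-0.71) and Ugcg (-0.50), lower at 48 h; slide and time cannot be told apart there. Between 24 and 6 h, on 1 slide, they were Kdsr (0.97), Degs1 (0.83), Ugcg (0.49), Sptlc2 (0.48), Cers2 (0.45) and Sgms1 (0.39), higher at 24 h, and Cers4 (-0.69), lower at 24 h. In these 3 comparisons 3, 6 and 7 of the 10 members were called, against 13.7, 60.8 and 39.3% of all entries. Some calls were lost when 1 array was left out. These were Ugcg in all 3 comparisons, Sgms1 at 48 and at 24 h against 6 h, and Sptlc2 and Cers2 at 24 h against 6 h.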

How the results depend on the processing

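The choice of scale mattered most; the cause was not tested. With spike-in scaling 0 members were called for palmitate or oleate against untreated, palmitate against oleate and Fv2E-PERK mock against wild-type mock, 8 at 24 h, 3 at 48 h and 2 for 24 against 6 h. Values that turned were Cers5 0.16 at 6 h; Sptlc1 0.37, Cers4 0.70 and Cers5 0.11 at 12 h; Sptlc1 0.77, Kdsr 0.29, Cers4 0.73, Cers5 0.30 and Degs1 0.75 at 24 h. At 48 h Sptlc1 was 0.20, Kdsr 0.19, Cers4 0.045, Cers5 0.024 and Cers6 0.12, and against wild-type mock Sptlc1 0.39, Cers4 0.20, Cers5 0.12 and Degs1 0.70. Quantile normalization turned Degs1 to 0.30 at 48 h against wild-type mock. The matrix values gave 0 members in all 3 fatty acid comparisons and turned Acer3 to -0.016 for palmitate against oleate. For palmitate the count was 2 with normexp, and 0 without palmitate replicates 1 and 2. For oleate it was 0 without a filter on dim probes or without palmitate replicates 1 and 2, and 1 with slide as a block. The replicate block left 1 member called with oleate (Cers4, at 0.34, lost its call), added Cers2 at 48 h (0.30) and left the other 108 results on their side of the threshold. Leaving out 1 array gave 0 to 2 members for oleate, 0 to 3 for Fv2E-PERK mock against wild-type mock and 3 to 7 for 24 against 6 h. A slide block could not be fitted in the PERK experiment. On every setting other than spike-in scaling Kdsr at 6, 12 and 24 h, Degs1 at 6 and 12 h, and Cers5 at all 4 times passed the test. With 2 or 3 arrays per group small differences were not detectable.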
